A study of Mus musculus with 12 samples.

Results

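The 10 tubulin isotypes described here are *Tuba1a*, *Tuba1b*, *Tuba1c*, *Tuba4a*, *Tuba8*, *Tubb2a*, *Tubb2b*, *Tubb4b*, *Tubb5* and *Tubb6*, taken by name from the 54658 gene names of the count table. They are 5 α-tubulin and 5 β-tubulin genes. RNA of the left atrium (LA) was sequenced in 6 iNICD mice, in which the transactivator *αMHC-rtTA* switches on the *tetO_NICD* transgene, the active intracellular domain of Notch1, in cardiomyocytes, and of 6 littermate controls that carried *αMHC-rtTA* alone. All were young adults of a mixed background and had eaten doxycycline chow for 3 weeks with no washout; 4 controls and 3 iNICD mice were female. The transactivator and doxycycline were thus shared by both groups, and whole LA tissue was used, so that fewer cells of a type and less RNA per cell cannot be told apart.

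Microtubules are built from dimers of 1 α- and 1 β-tubulin chain, and mammals encode each chain in several genes whose proteins differ mainly at the C-terminal tail. The tail carries most of the modifications, among them removal of the last tyrosine, that set how motors and other proteins bind the filament. In cardiomyocytes, microtubules carry cargo and resist shortening of the cell. *Tuba4a* encodes an α-tubulin made without that terminal tyrosine, *Tuba8* a divergent α-tubulin known from muscle and testis, and *Tubb6* a β-tubulin known from regenerating muscle.

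Library totals ran from 21432632 to 27182038 counts, and the isotypes together took 15908 to 32543 of them. *Notch1*, whose intracellular part the transgene encodes, had 2335 to 3311 counts in the controls and 71187 to 107667 in the iNICD libraries. The library of control replicate 5, a male, stood apart. Its isotypes summed to 1523 normalized CPM (CPM on the library total after TMM scaling), against 868 to 1162 in the other controls and 701 to 1021 in iNICD, and its smooth muscle and pericyte markers summed to 6217, against 1668 to 3282 in the other controls. Values without it are given beside the results that it moved most.

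**Figure D1:**
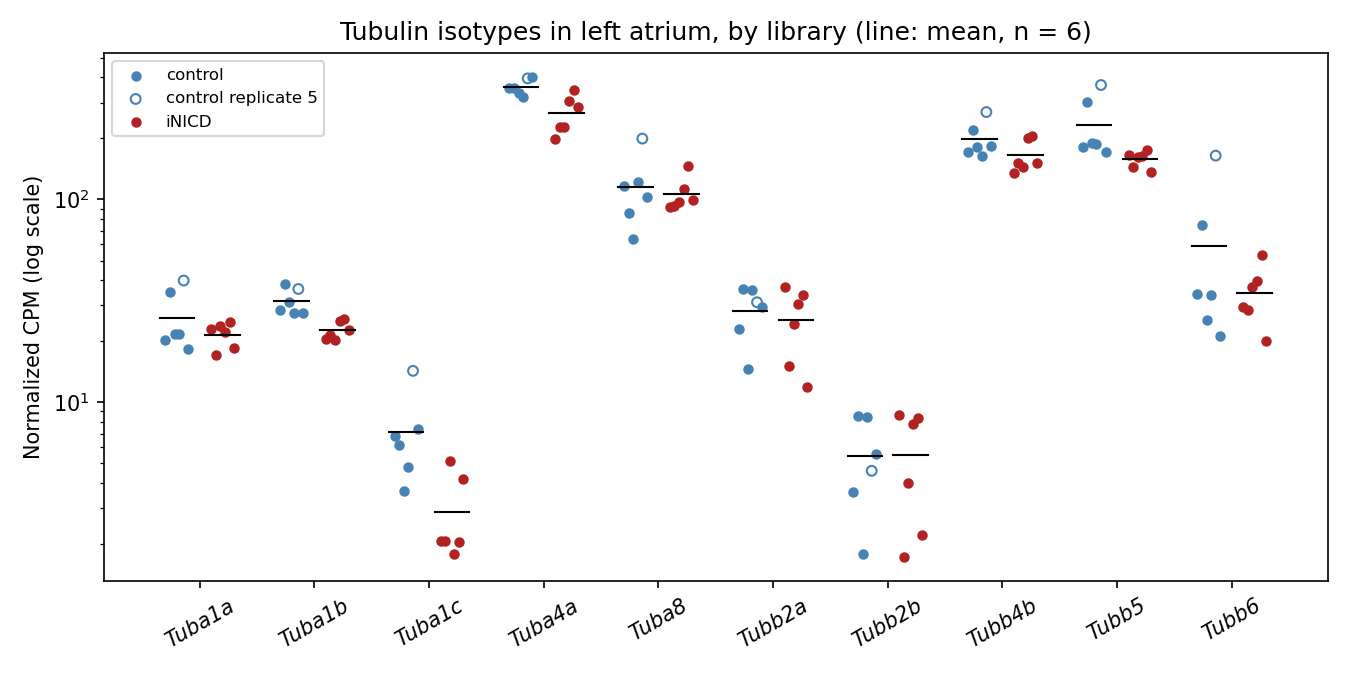
Normalized CPM (log scale) of each isotype in 12 LA libraries. Blue points are controls, red points iNICD, the open circle control replicate 5 and black lines group means (n = 6). The groups are separate only for *Tuba1b*, at 20.3 to 25.8 in iNICD and 27.5 to 38.4 in controls.

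In LA with Notch activation, 1 of the 10 isotypes passed the threshold, *Tuba1b*, and it fell. Of all 13541 genes tested, 1.34% passed in that direction and 2.78% in the other. Fitted log2 fold changes were negative for 9 of 10 isotypes, with a median of -0.36 against -0.01 over all genes tested. Without control replicate 5, *Tuba1b* was again the isotype that passed, the median was -0.15, and 2.25% of all genes were lower and 3.66% higher. Other fits called 4 isotypes lower with DESeq2 (3.29% of all genes), 3 with the exact test of edgeR (2.07%) and 2 with sex as a covariate (1.77%). In females alone (0.967%), without control replicate 3 (1.01%) and without iNICD replicate 5 (1.09%), 2 isotypes were lower but fewer of all genes. No isotype passed in males alone (0 of all genes) or without iNICD replicate 1 (0.679%). None passed either with a block for the replicate numbers of the descriptions (1.00%).

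*Tuba1b*, a widely expressed α-tubulin, had a lowest, median and highest value of 27.5, 29.8 and 38.4 normalized CPM in the controls and 20.3, 22.1 and 25.8 in iNICD. Every iNICD library lay below every control, which held for 1.25% of all genes tested. The log2 fold change was -0.48 ± 0.10 (SE; edgeR quasi-likelihood test, Benjamini-Hochberg adjusted p = 0.0203), and the exact permutation test of the libraries, two-sided, gave 0.00216, the smallest p it allows with these groups. Without control replicate 5 the log2 fold change was -0.43 (edgeR adjusted p = 0.0238). The call was lost without iNICD replicate 1 (edgeR adjusted p = 0.0537) and without iNICD replicate 3 (edgeR adjusted p = 0.0506), with a log2 fold change of -0.45 in both. With a block for the replicate numbers of the descriptions it was also lost (-0.47, edgeR adjusted p = 0.0520). The same held in males alone (-0.39, edgeR adjusted p = 0.775), where no gene tested was called lower.

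*Tuba1c*, a less abundant α-tubulin, ran from 3.64 through a median of 6.46 to 14.3 normalized CPM in the controls and from 1.78 through 2.07 to 5.15 in iNICD. The highest control value was control replicate 5, and 4 iNICD libraries lay below all controls. The log2 fold change of -1.31 ± 0.36 (SE) missed the threshold (edgeR adjusted p = 0.0640). Without control replicate 5 it was -0.99 ± 0.30 (SE; edgeR adjusted p = 0.0837).

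*Tuba4a* took the largest share of isotype counts. Its lowest, median and highest values were 320, 354 and 402 normalized CPM in the controls and 200, 257 and 346 in iNICD. The groups overlapped through 1 iNICD library. The log2 fold change was -0.44 ± 0.13 (SE), which missed the threshold (edgeR adjusted p = 0.0774).

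*Tubb5*, a β-tubulin of most tissues, ran from 172 through 189 to 367 normalized CPM in the controls and from 137 through 163 to 175 in iNICD. In iNICD, 5 libraries lay below all controls, and control replicate 5 was the highest library. The log2 fold change of -0.56 ± 0.18 (SE) missed the threshold (edgeR adjusted p = 0.116) and was -0.39 without that control. *Tuba1b*, *Tuba1c*, *Tuba4a* and *Tubb5* were the 4 isotypes with an unadjusted p under 0.05, against 8.09% of all genes that were lower at that limit.

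**Figure D2:**
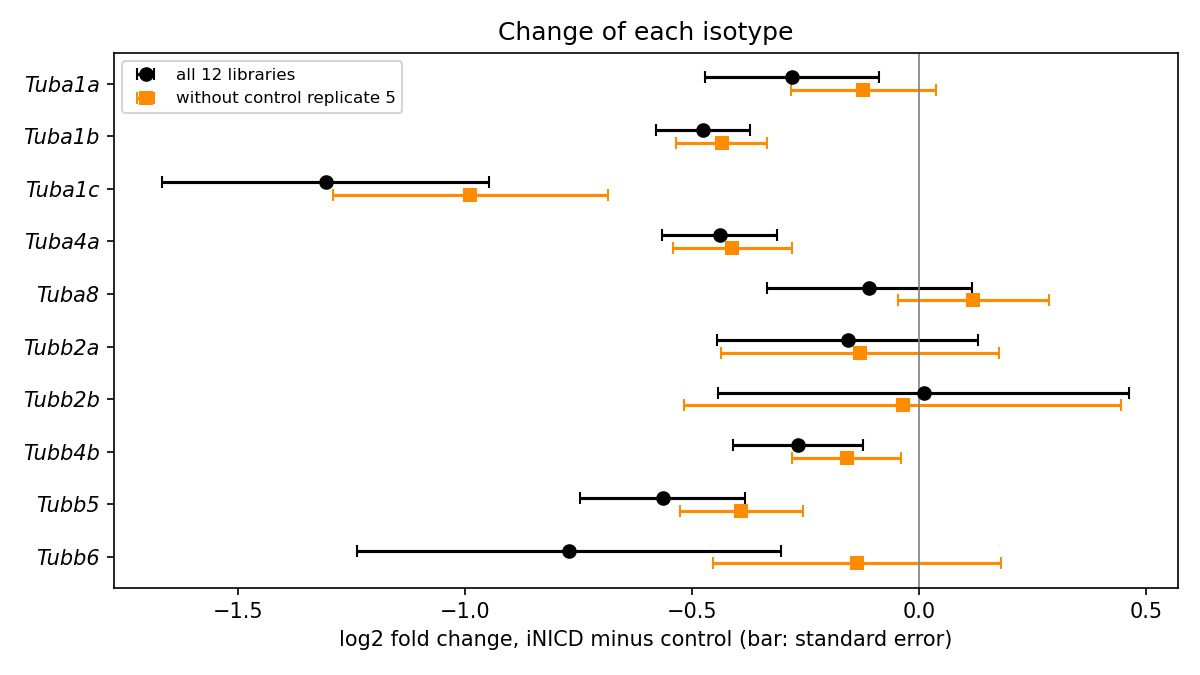
Log2 fold change of each isotype, iNICD minus control, with its standard error. Black circles use all 12 libraries and orange squares leave out control replicate 5. *Tubb6* moves from -0.77 to -0.14 and *Tuba8* from -0.11 to 0.12.

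*Tubb6* ran from 21.3 through 34.0 to 165 normalized CPM in the controls and from 19.9 through 33.2 to 53.2 in iNICD. The highest value was control replicate 5, and the other controls reached 75.2. The log2 fold change was -0.77 ± 0.47 (SE; edgeR adjusted p = 0.424) with that library and -0.14 ± 0.32 (SE; edgeR adjusted p = 0.873) without it.

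*Tuba8* ran from 63.5 through 110 to 200 normalized CPM in the controls and from 92.3 through 98.3 to 146 in iNICD, and the groups overlapped. Its log2 fold change of -0.11 (edgeR adjusted p = 0.842) became 0.12 without control replicate 5. *Tubb4b*, the β-tubulin also used in cilia, ran from 163 through 182 to 270 in the controls and from 135 through 152 to 206 in iNICD (log2 fold change -0.27, edgeR adjusted p = 0.362), and the fold change was -0.16 without control replicate 5, its highest library. *Tuba1a*, the main α-tubulin of developing neurons, ran from 18.4 through 21.7 to 39.8 and from 17.0 through 22.6 to 24.8 (log2 fold change -0.28, edgeR adjusted p = 0.485); its highest value was again control replicate 5, without which the fold change was -0.12. For these 3 isotypes no difference beyond the spread of the libraries was detected.

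*Tubb2a* and *Tubb2b*, neighbouring β-tubulin genes, varied several-fold within both groups. *Tubb2a* ran from 14.6 through 30.2 to 36.2 normalized CPM in the controls and from 11.9 through 27.3 to 37.0 in iNICD. *Tubb2b* ran from 1.78 through 5.07 to 8.60 and from 1.72 through 5.93 to 8.65. The log2 fold changes were -0.16 (edgeR adjusted p = 0.821) and 0.01 (edgeR adjusted p = 0.993), the second being -0.04 without control replicate 5. The pair was picked out after its values were seen. Over the 12 libraries the log2 levels of both genes had a Pearson r of 0.95, and the deviations from the group means had an r of 0.96. The genes also share sequence, whose part in this was not tested. Deviations of *Tuba1a* with *Tubb5* (r = 0.97) and of *Tubb5* with *Tubb6* (r = 0.96) were as closely correlated, and all other pairs of isotypes were lower.

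**Figure D3:**
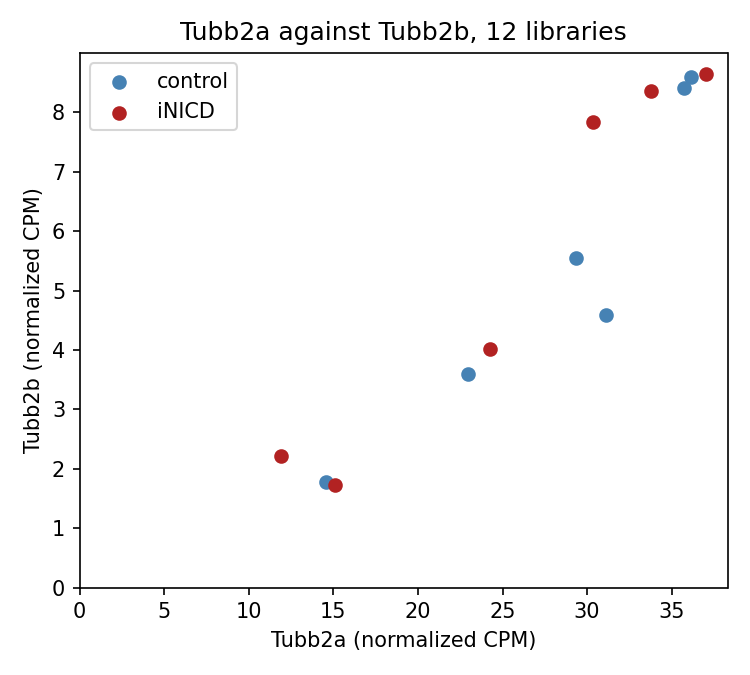
*Tubb2a* against *Tubb2b*, both in normalized CPM, in 6 control (blue) and 6 iNICD (red) LA libraries. Both groups spread along the same line, and *Tubb2b* runs from 1.72 to 8.65.

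On GRCm38, *Tuba1b* (chr15:98931425-98934565), *Tuba1a* (chr15:98949837-98953703) and *Tuba1c* (chr15:99029891-99038110) lie close together, as do *Tubb2a* (chr13:34074274-34078007) and *Tubb2b* (chr13:34126748-34130466). Near-identical coding sequences limit the counts of single isotypes. Of the distinct 50-base windows of GENCODE M21 transcripts, the share also present in another gene's transcripts was 75.5% for *Tuba1a*, 75.1% for *Tuba1b*, 52.7% for *Tuba1c*, 49.6% for *Tubb2a*, 36.9% for *Tubb2b* and 41.3% for *Tubb4b*. *Tuba1b* and *Tuba1c* shared 1005 windows with each other. *Tuba4a* shared 35.4%, mostly with *Stk16*, a gene whose transcripts overlap it. *Tuba8* shared 14.7%, *Tubb5* 0.0892% and *Tubb6* none. The route with STAR in the study's supplement counted only reads that aligned uniquely and unambiguously, and the other route counted with HTSeq in union mode, which leaves out ambiguous reads. The authors' processing notes name STAR and featureCounts and not HTSeq. The table also holds mitochondrial counts, which the HTSeq route left out. Without them the genes tested rose from 13541 to 13678. Under either route, reads from near-identical copies would be lost. For the overlap of *Tuba4a* with *Stk16* this depends on the strand setting of the counting, which is not given in the sources used here. Thus the levels of the *Tuba1* and *Tubb2* genes relative to other isotypes are uncertain.

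Divided by the length in the table, *Tuba4a* and *Tubb4b* were the most abundant isotypes in the controls, at 97.3 ± 8.84 and 95.0 ± 19.2 normalized CPM per kilobase (SD, n = 6), and *Tuba4a* was the higher in 4 of 6 control libraries and in 1 of 6 iNICD libraries. *Tubb5* followed at 70.3 ± 24.4 and *Tuba8* at 50.8 ± 20.6 (SD, n = 6). *Tuba1c*, at 3.13 ± 1.64, and *Tubb2b*, at 2.36 ± 1.18 (SD, n = 6), were the least abundant, and *Tuba1c* was the higher of the pair in 4 control libraries and 3 iNICD libraries. The order depended on this scale. When counts were divided instead by the windows found in no other gene, a scale added after seeing the data, the control shares were 25.5% for *Tubb4b*, 23.4% for *Tuba4a*, 10.8% for *Tuba1b*, 10.7% for *Tubb5*, and 9.43% for *Tuba8* beside 9.41% for *Tuba1a*. In iNICD the means per kilobase were 71.8 ± 15.2 for *Tuba4a* and 79.0 ± 14.6 for *Tubb4b* (SD, n = 6).

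Shares of the isotype counts were then compared. The α-tubulin genes held 51.5% ± 5.50 of isotype counts in the controls and 51.8% ± 3.29 in iNICD (SD, n = 6), and 52.8% ± 5.01 in the controls without replicate 5, so that the sign of the difference rests on that library. *Tuba4a* held 34.8% ± 5.73 and 32.7% ± 3.40 (36.5% ± 4.22 in the controls without replicate 5), *Tubb5* 21.6% ± 3.10 and 19.8% ± 2.39, and *Tubb4b* 18.7% ± 1.22 and 20.4% ± 1.22 (SD, n = 6). *Tuba1b* held 3.02% ± 0.41 and 2.83% ± 0.20, a difference of -0.19 percentage points (exact permutation p = 0.335, unadjusted). Without control replicate 5 the difference was -0.32 points, with an exact permutation p of 0.0606. Without control replicate 3 it was -0.08 points, with an exact permutation p of 0.656.

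Shares of 2 isotypes had an unadjusted p under 0.05 among the 10 compared. *Tuba1c* ran from 0.419% through 0.624% to 0.937% of isotype counts in the controls and from 0.195% through 0.293% to 0.690% in iNICD (exact permutation p = 0.0411, unadjusted), and p was 0.0844 without control replicate 5 by the exact test. *Tubb4b* had an exact permutation p of 0.0498, unadjusted, one of 0.165 after division by length and one of 0.0887 without control replicate 5. *Tuba8* ran from 7.32% through 11.5% to 13.1% in the controls and from 12.3% through 13.1% to 14.3% in iNICD (exact permutation p = 0.0563, unadjusted); its exact p was 0.0173 without control replicate 5.

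**Figure D4:**
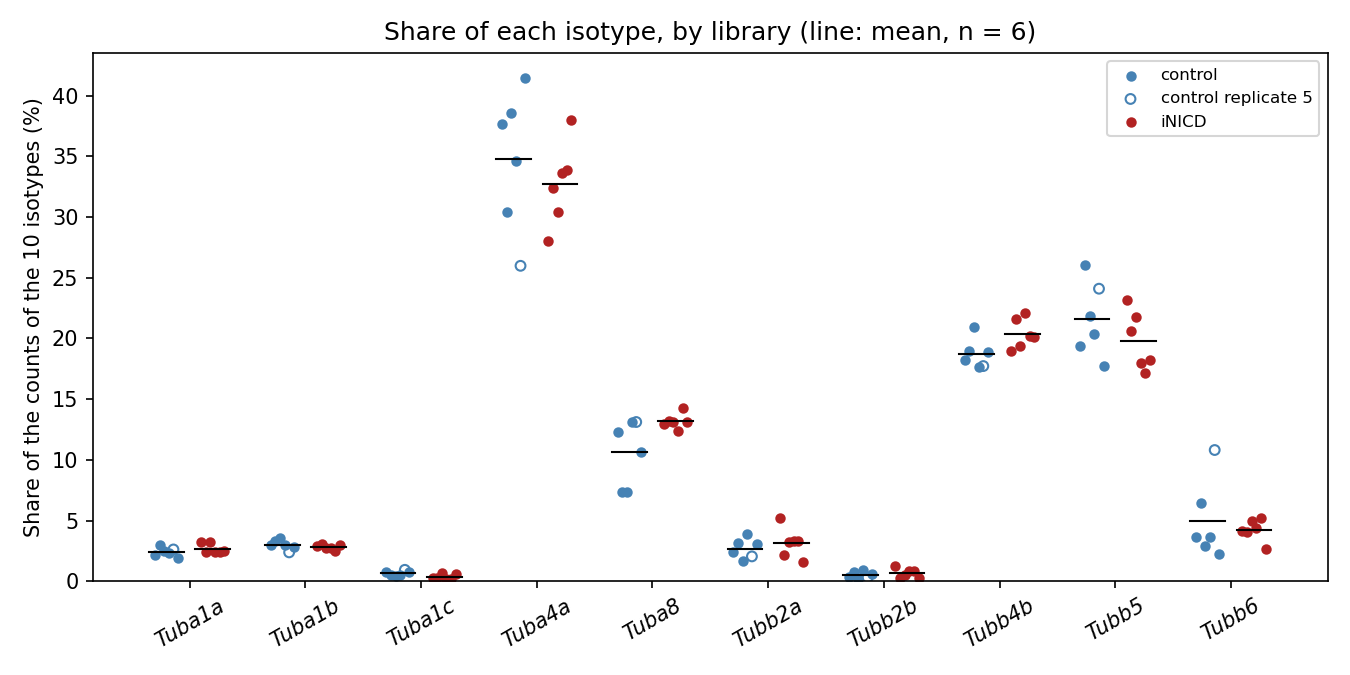
Share of the counts of the 10 isotypes held by each isotype, in percent, in 6 control (blue, open circle for replicate 5) and 6 iNICD (red) libraries, with group means as lines. *Tuba4a*, *Tubb5* and *Tubb4b* hold the largest shares in both groups.

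The isotypes together reached a median of 955 normalized CPM in the controls and 751 in iNICD, and 4 iNICD libraries lay below all controls. The control mean was 1.32 times the iNICD mean, and 1.20 times without control replicate 5.

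The sexes were unequally spread over the groups. *Tuba4a* lay at 320 to 354 normalized CPM in female and 396 to 402 in male controls, and at 200 to 227 in female and 287 to 346 in male iNICD mice, so that within each sex all iNICD values lay below all controls, as held for *Tuba1b* too and for 2.37% of all genes tested. Its log2 fold change was -0.64 ± 0.08 (SE) in females and -0.36 ± 0.13 (SE) in males. The difference between the sexes did not pass across all genes (edgeR interaction 0.29, adjusted p = 0.916). With sex as a covariate, *Tuba4a* fell with a log2 fold change of -0.52 (edgeR adjusted p = 0.00188).

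**Figure D5:**
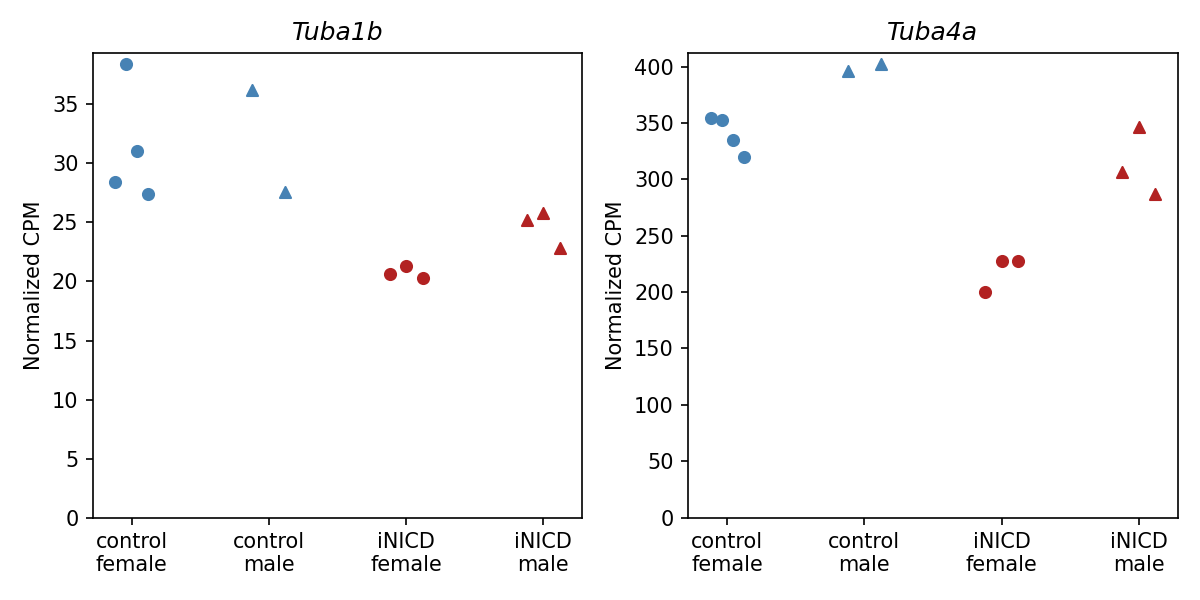
Normalized CPM of *Tuba1b* and *Tuba4a* by group and sex, circles for females and triangles for males. Male libraries are the higher for *Tuba4a* in both groups, at 396 to 402 in controls and 287 to 346 in iNICD.

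The sequences before the start of isotypes are shown for 3 of those with an unadjusted p under 0.05 and, for comparison, *Tubb4b*. They were read from RefSeq promoters on GRCm38.p6, which held 8 of the 10 isotypes, and are cut where the GENCODE M21 gene begins. Each runs 5′ to 3′ on the gene's strand, with capitals for motif letters on either strand. The 6 motifs searched were the TATA box (TATAAA), the CCAAT box, the Sp1 box (GGGCGG), the core recognised by RBPJ, the DNA-binding partner of NICD (TGGGAA), an E-box that HEY factors can bind (CACGTG) and the M-CAT motif of TEAD factors (CATTCC). *Tuba1b* lies at chr15:98934566-98934640 (minus strand), *Tuba1c* at chr15:99029641-99029890 (plus), *Tubb5* at chr17:35838307-35838551 (minus) and *Tubb4b* at chr2:25224703-25224952 (minus).
Tuba1b: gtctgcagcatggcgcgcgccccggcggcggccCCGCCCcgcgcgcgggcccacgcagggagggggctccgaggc
Tuba1c: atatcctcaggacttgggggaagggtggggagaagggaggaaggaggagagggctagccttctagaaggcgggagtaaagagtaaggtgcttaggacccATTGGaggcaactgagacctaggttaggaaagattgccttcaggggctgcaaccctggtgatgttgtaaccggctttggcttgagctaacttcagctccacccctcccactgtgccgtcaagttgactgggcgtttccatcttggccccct
Tubb5: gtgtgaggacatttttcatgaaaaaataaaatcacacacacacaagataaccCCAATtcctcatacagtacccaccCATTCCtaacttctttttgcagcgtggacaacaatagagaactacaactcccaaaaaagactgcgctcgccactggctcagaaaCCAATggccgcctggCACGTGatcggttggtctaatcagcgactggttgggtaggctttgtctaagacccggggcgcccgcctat
Tubb4b: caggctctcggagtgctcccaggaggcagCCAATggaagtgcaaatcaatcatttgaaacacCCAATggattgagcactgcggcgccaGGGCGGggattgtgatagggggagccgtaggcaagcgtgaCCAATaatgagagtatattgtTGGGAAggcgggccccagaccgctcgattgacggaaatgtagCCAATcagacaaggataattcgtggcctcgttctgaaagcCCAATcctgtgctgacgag

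Motifs were counted over the full 250 bases. For *Tuba4a* these lie wholly inside the GENCODE gene, and only 48 of them lie before it for *Tuba1a* and 75 for *Tuba1b*. TGGGAA on either strand was found in 1 of the 8 isotypes, *Tubb4b*, and in 21.6% of all 32851 promoters of that length. CCAAT was found in 4 of 8 and in 33.8% of all, GGGCGG in 5 of 8 and in 32.7%, and TATAAA in 1 of 8 and in 12.4%. CACGTG was found in 2 of 8, *Tuba8* and *Tubb5*, and in 6.02% of all, and CATTCC in 1 of 8, *Tubb5*, and in 12.6%. A match here is a run of letters and no measured binding site.

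Genes whose levels were most like *Tuba1b* over the 12 libraries were *Yif1b* (Pearson r = 0.96), *Ldha* (0.94) and *Trim28* (0.93), and the same values from deviations from the group means were 0.88, 0.82 and 0.80. The sum of the isotypes was most like *Chchd1* (0.98), *Git1* (0.96) and *Tpm2* (0.96). These libraries share groups and depth, and the values are a description.

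Other genes of the microtubule system are read against the 2.78% of all genes called higher and the 1.34% called lower. Of 23 chaperonin and tubulin folding genes tested none passed in either direction, and their log2 fold changes had a median of -0.13, which was -0.03 without control replicate 5, whose folding genes summed to 2631 normalized CPM against 1767 to 1959 in the other controls. Of 21 tubulin modification genes 1 rose, *Agbl2*, a carboxypeptidase of tubulin tails (log2 fold change 1.38, edgeR adjusted p = 0.00753), at 0.643 normalized CPM in controls and 1.67 in iNICD; it passed the filter on low counts mainly through the iNICD libraries, where it is high, so its call is no independent support. Of 41 microtubule-associated genes 2 rose and 1 fell. *Clasp1*, which stabilises plus ends, was at 568 ± 72.0 in the controls and 1440 ± 153 normalized CPM in iNICD (SD, n = 6; log2 fold change 1.34, edgeR adjusted p = 3.67e-06). *Mtus1* rose (log2 fold change 0.82, edgeR adjusted p = 0.000552) and *Mtus2* fell (log2 fold change -0.53, edgeR adjusted p = 0.0233). Of 36 motor genes 1 rose, the dynein light chain *Dynlt3* (log2 fold change 0.26, edgeR adjusted p = 0.0259). Of 5 other tubulin genes tested none passed.

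Markers of cell types moved with the groups in part. The 12 cardiomyocyte markers summed to 67469 to 73656 normalized CPM in the controls and 56894 to 66266 in iNICD. Of these markers 4 fell, against 1.34% of all genes tested: *Myl4* (log2 fold change -0.75), *Sln* (-0.64), *Tnnt2* (-0.44) and *Myl7* (-0.54). No other marker of that list passed, and *Myh6*, the most abundant, was at -0.03 (edgeR adjusted p = 0.871). *Cacna1c* (0.22) and *Ryr2* (0.07) had positive log2 fold changes. The 10 endothelial markers summed to 1155 to 1654 and 1043 to 1294, and the 10 fibroblast markers to 6765 to 9623 and 7752 to 10043. None passed the threshold in either list. Without control replicate 5 the control sums were 1155 to 1348 and 8134 to 9623. Of the 10 endothelial log2 fold changes 9 were negative, with a median of -0.20, which was -0.09 without that library. Smooth muscle and pericyte markers summed to 1668 to 6217 in the controls and 1581 to 3022 in iNICD. The highest control sum was control replicate 5 and was mostly *Des*, and the other controls reached 3282. Mesothelial markers ran from 276 to 367 and from 170 to 348, and leukocyte markers from 221 to 285 and from 213 to 331, with none past the threshold. All 8 mesothelial log2 fold changes were negative, with a median of -0.30. Neural and Schwann markers ran from 34.1 to 66.3 in the controls and up to 58.2 in iNICD, also with none. Red cell and platelet markers ran from 72.6 to 266 and from 40.6 to 156, and of 7 tested *Itga2b*, a platelet integrin, fell (log2 fold change -0.71). All 7 fitted log2 fold changes were negative, with a median of -1.28. Of 5 cycling genes tested none passed; the median of their log2 fold changes was 1.69. Cycling genes summed to 4.63 to 16.8 in the controls and 7.47 to 89.3 in iNICD, so that the groups overlapped, and *Cdk1* and *Birc5* had control means of 0.947 and 0.955 normalized CPM, near the filter. The part of these in the isotype results was not tested.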

How the data were processed

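RNA-seq counts of 12 LA libraries were used, 6 per group, with group, replicate number and sex from the sample titles and descriptions. The table the authors deposited holds unnormalized read counts for each gene name and, in another unit, a length in bases. Their processing notes name cutadapt, STAR 2.4.2a, Subread featureCounts and edgeR, and not TopHat2 or HTSeq. The supplement also describes a TopHat2 and HTSeq route, which left out mitochondrial reads, whereas the table holds mitochondrial counts. The strand setting of the counting is not given in the sources used here. The build is mm10. The members and all gene lists were chosen with earlier results of these data known.

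A gene was kept if 6 or more libraries exceeded 1 CPM, which left 13541. These were normalized by TMM and tested in edgeR 4.0.16 (quasi-likelihood, both directions; R 4.3.3). Benjamini-Hochberg adjustment covered all of them, and the threshold was 0.05. Single levels, as log2 of normalized CPM plus 0.5, and shares were compared by exact permutation of the libraries, unadjusted. Named genes were the 10 isotypes, list genes past the threshold (up to 5 a direction), marker genes past it (up to 3 a list, by adjusted p; the fourth cardiomyocyte marker was named because all 4 were counted) and, by Pearson r, the 3 genes most like *Tuba1b* and the isotype sum. *Des*, *Myh6*, *Cacna1c* and *Ryr2* were named in addition, to show what the marker sums and counts rest on. Titles give separate biological replicates, and p-values measure the spread between these mice. No libraries of a group were copies: the lowest chi-square per gene between a pair was 14.2. The scripts were tested on simulated data. DESeq2 1.42.0 and limma 3.58.1 with Python 3.11.15 served alternatives and tables.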

Additional observations from a re-analysis of the deposited data

Results flagged for a closer look

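*Tuba1c* in control replicate 5 was at 14.3 normalized CPM, far from the other controls, which ran from 3.64 to 7.36. It was 1 of 40 groups of 6 values examined, isotype levels and shares in each group, where chance alone would mark about 2.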

How the results depend on the processing

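The count of isotypes past the threshold was 1. With DESeq2 it was 4 (*Tuba1b*, *Tuba1c*, *Tuba4a* and *Tubb5*, with 3.29% of all genes lower). It was 3 with the exact test of edgeR (2.07%), 2 with sex as a covariate (1.77%) and 2 in females alone (0.967%). The count was 0 in males alone (0 of all genes lower). It was also 0 with the replicate block of the description numbers (*Tuba1b* log2 fold change -0.47, edgeR adjusted p = 0.0520). Leaving out 1 library, it ran from 0 to 2 (0.679% to 2.25% of all genes lower). It was 1 with the replicate block of the title numbers; 1.00% of all genes were lower under either block. Whether numbers pair the samples was not settled by these values. By title numbers, 4 of 6 pairs had deviations correlated over 0.1, with a lowest r of -0.15 and a highest of 0.41. Of the 6 controls, 3 correlated best with their own title number. By description numbers, 4 of 6 pairs were over 0.1, with a lowest r of -0.12, and 2 of 6 controls correlated best with their own number. Without iNICD replicate 1 no isotype passed, and without iNICD replicate 3 the 1 that passed was *Tuba1c*.

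Log2 fold changes that changed sign were that of *Tuba8*, 0.12 without control replicate 5 (-0.23 to 0.12 over libraries left out), and of *Tubb2b*, -0.0011 with upper quartile normalization, -0.020 with sex, -0.023 and -0.021 with the replicate block of titles and of descriptions, -0.22 in females and -0.17 to 0.19 over libraries left out. Share differences that did so were those of *Tuba1b* and *Tuba4a* in males (0.162 and 1.47 percentage points) and of *Tubb6* in females (0.202) and without control replicate 5 (-1.28 to 0.446 over libraries left out). The change of *Tubb2a* ran from -0.29 without iNICD replicate 1 to -0.011 without iNICD replicate 6. The cause was not tested. The share difference of *Tuba1c* passed an unadjusted 0.05 in 9 of 20 alternative settings, all 4 denominators or scalings among them, and those of *Tubb4b* and *Tuba8* in 3 of 20 each; none of these passed under the replicate block. Without control replicate 5, chosen after seeing the data, *Cct4*, *Ttll11*, *Map4*, *Kif3b* and *Hbb-bt* also passed.

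With 6 libraries per group a small change in a variable isotype, as in *Tubb2b* with a standard error of 0.45, was not detectable.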
